A study of Mus musculus with 8 samples.

Results

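A set of 10 genes of the T cell surface and its first signalling steps was chosen by name, and every probe set annotated to one of them was followed in whole mouse prostate with and without *Olfm4*. The genes were *Cd3d*, *Cd3e*, *Cd3g*, *Cd4*, *Cd8a*, *Cd8b1*, *Cd2*, *Cd5*, *Lck* and *Il7r*. Of these 10 genes, 9 had a probe set of their own, and together they had 15 of the 45037 probe sets tested, or 9 of the 18193 genes with a symbol of their own. *Cd8a* had 5 probe sets, *Cd4* and *Il7r* had 2 each, and the other genes had 1. No probe set carried the symbol *Lck* in the annotation used here, so *Lck* was not analysed here. The groups were *Olfm4*-knockout mice (*Olfm4*-/-) and wild-type mice (*Olfm4*+/+), all 3 months old. Their mixed background was 129/SV (50%) with National Institutes of Health Black Swiss (50%). Each group had 4 arrays with RNA from 1 mouse each, and 2 arrays of each group were run on each of 2 array days. The line was kept by crossing heterozygotes. The comparison was made to look for mechanisms behind the tumours of *Olfm4*-deficient prostate.

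A T cell recognises antigen through a receptor whose variable chains are held at the surface by the CD3 proteins. The CD3 delta, epsilon and gamma chains and the zeta chain, the product of *Cd247*, carry the signal into the cell, where the kinase LCK, bound to the coreceptors CD4 or CD8, starts the phosphorylation cascade. CD4 reads MHC class II and marks helper cells, and CD8 reads MHC class I and marks cytotoxic cells. CD2 is an adhesion receptor, CD5 dampens receptor signalling, and the IL-7 receptor alpha chain keeps resting T cells alive. The normal prostate holds few T cells, scattered in the epithelium and the stroma. In whole tissue, fewer cells of a type and less RNA per cell cannot be told apart.

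The *Cd3* genes lie next to each other on mouse chromosome 9, in the order *Cd3g*, *Cd3d*, *Cd3e*, with *Ube4a* on one side and *Mpzl2* on the other. Their promoters are shown because these 3 neighbours, together with *Cd8a*, had the lowest values in knockout relative to wild-type prostate. The sequences run from 250 bases before to 50 bases after the start site in RefSeq on GRCm38.p6. They are chr9:44981536-44981835 on the plus strand for *Cd3d*, chr9:45009562-45009861 on the minus strand for *Cd3e* and chr9:44980382-44980681 on the minus strand for *Cd3g*. Capitals mark matches on either strand to 5 short motifs of factors used in T cells. The letters searched were AGGAAG for ETS factors, which act at many promoters of blood cells, and TGTGGT for RUNX factors, which also steer the choice between the CD4 and CD8 fates. An E-box was read as CAGGTG, the core bound by E proteins during lymphocyte development. The GATA core was read as AGATAA, and the letters used for TCF and LEF factors, the nuclear partners of beta-catenin, were CTTTGA. No position of one match overlapped another.
*Cd3d*: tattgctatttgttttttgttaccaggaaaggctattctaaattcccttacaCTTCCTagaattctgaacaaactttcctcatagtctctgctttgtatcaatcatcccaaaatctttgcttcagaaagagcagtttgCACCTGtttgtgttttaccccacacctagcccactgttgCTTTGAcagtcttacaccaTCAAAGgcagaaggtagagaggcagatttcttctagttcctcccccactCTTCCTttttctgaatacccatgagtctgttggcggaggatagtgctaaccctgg
*Cd3e*: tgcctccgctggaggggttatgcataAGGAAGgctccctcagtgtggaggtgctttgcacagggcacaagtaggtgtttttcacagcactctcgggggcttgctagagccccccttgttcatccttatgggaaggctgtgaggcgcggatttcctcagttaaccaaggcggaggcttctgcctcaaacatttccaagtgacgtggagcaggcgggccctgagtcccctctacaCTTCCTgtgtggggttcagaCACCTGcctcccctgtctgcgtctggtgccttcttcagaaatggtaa
*Cd3g*: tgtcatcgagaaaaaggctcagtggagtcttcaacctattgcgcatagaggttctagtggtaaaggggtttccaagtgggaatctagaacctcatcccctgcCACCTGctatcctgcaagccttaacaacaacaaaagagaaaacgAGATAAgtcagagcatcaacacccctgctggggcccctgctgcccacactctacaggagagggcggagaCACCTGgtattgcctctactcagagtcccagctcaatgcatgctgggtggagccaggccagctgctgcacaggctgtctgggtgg
The *Cd3d* promoter had 5 matches, to the ETS, E-box and TCF/LEF letters, and those of *Cd3e* and *Cd3g* had 3 each. The E-box letters were the only ones present in all 3. Of 32851 promoters of this length, 20.2% held the E-box letters, 35.4% the ETS, 16.8% the RUNX, 11.2% the GATA and 16% the TCF/LEF letters. The promoter of *Cd8a*, on chromosome 6, had no match to any of these letters. Promoters of 7 of the 10 genes were in the table.

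*Olfm4* itself had log2 values of 3.09, 3.00, 3.25 and 3.09 on the knockout arrays, against 10.32, 10.23, 10.74 and 10.65 on the wild-type arrays, so every array matched its label. All values are on the log2 scale of the authors' RMA output, in which a difference of 1 is a doubling. Array medians lay between 6.03 and 6.09, and 9 measured genes of prostate epithelium averaged between 13.23 and 13.83 on knockout arrays and between 13.75 and 13.77 on wild-type arrays. Seminal vesicle markers stood apart on the first array of each genotype, with a mean log2 value of 13.81 in knockout and 14.15 in wild type, while the other arrays lay between 7.88 and 10.04. No detection calls were used. As a guide to background, 9 measured genes of photoreceptors had means between 3.25 and 7.83 and averaged between 4.82 and 4.92 on each array. The means of all 9 T cell genes (4.12 to 7.66) lay within the wider range. Those of 6 of them (6.12 to 7.66) lay above the average, and *Cd4*, *Cd8b1* and *Cd5* (4.94, 4.30 and 4.12) lay near or below it. Probe sets differ in brightness for the same amount of RNA.

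T cell genes tended to have lower values in knockout prostate, without any of them passing the test. Of the 15 probe sets, 14 had a lower mean and 1 a higher mean in knockout prostate, and none was called by limma at an adjusted p under 0.05, where 0.111% of all probe sets were called in either direction (0.0511% lower and 0.0600% higher). At an unadjusted p under 0.05, 4 of the 15 were lower and none was higher, against 7.34% of all probe sets lower and 5.46% higher. These 4 were the probe sets of *Cd3e* and *Cd3g* and the brightest and the dimmest of *Cd8a*. By gene, taking the probe set with the highest mean, 8 of 9 had a lower mean in knockout prostate, against 53.8% of 18193 genes. The median log2 difference of the 9 was -0.52, against -0.01 over all genes. The set was chosen with earlier results of these data known, and several of its genes varied together, so these counts are descriptions. The genes fell into those with a mean log2 value of at least 6 (*Cd3d*, *Cd3e*, *Cd3g*, *Cd8a*, *Cd2* and *Il7r*), which held the larger differences, and *Cd4*, *Cd8b1* and *Cd5*, which lay under 5 on every array but 1. Knockout and wild-type arrays overlapped for all 15 probe sets, while over all probe sets the knockout arrays lay wholly below the wild-type arrays for 5.03% and wholly above them for 3.69%. The count of 4 at an unadjusted p under 0.05 rested on single arrays. It was 2 without knockout array 1, 2 or 3 or without wild-type array 1 or 4, 5 without knockout array 4, 1 without wild-type array 2 and 7 without wild-type array 3, and 0 without both arrays rich in seminal vesicle transcripts.

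**Figure D1:**
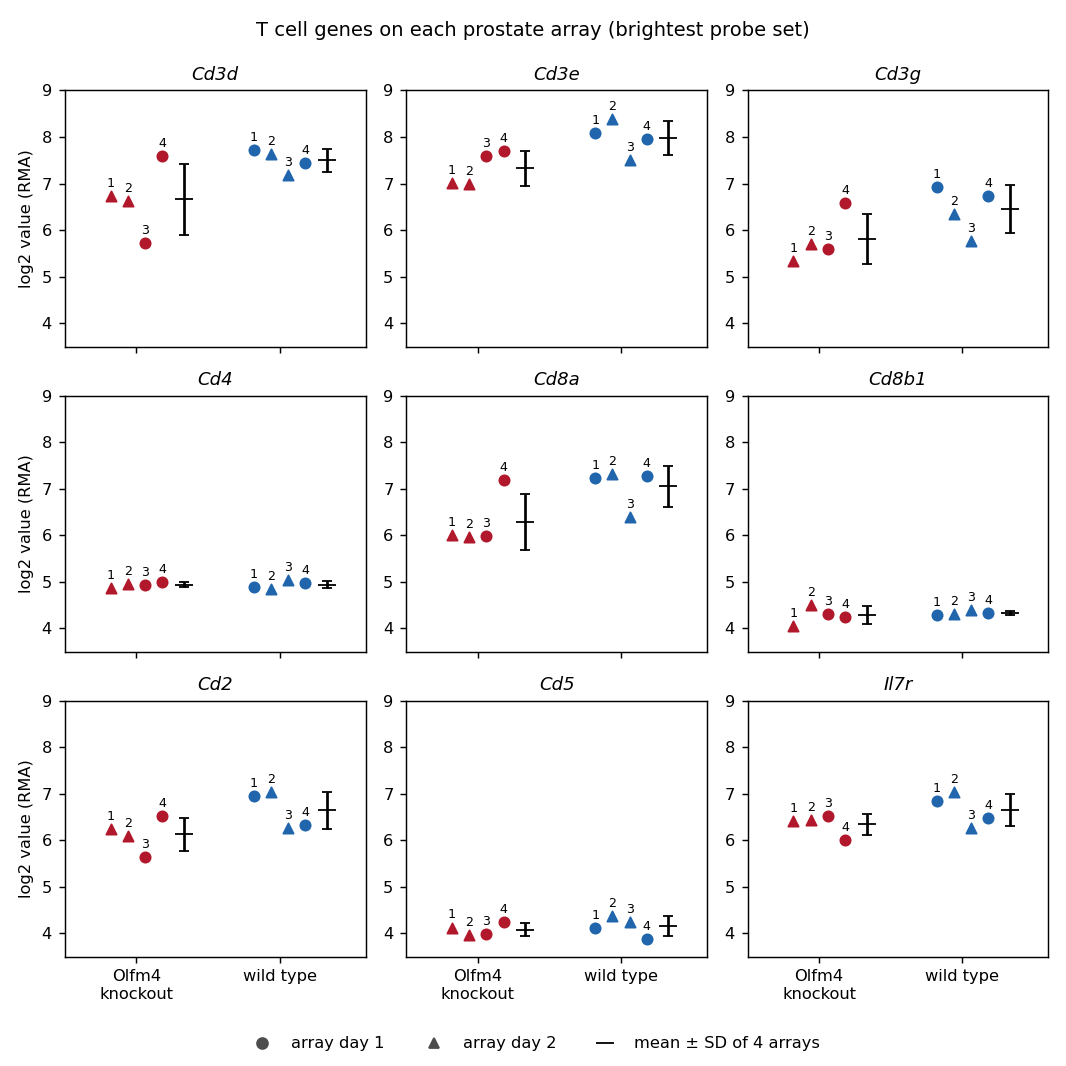
Log2 value of 9 T cell genes on each array of 3-month-old prostate, knockout on the left and wild type on the right of each panel, with a symbol per array day, the replicate number above it and the mean ± SD of 4 arrays beside it. For *Cd3d*, *Cd3g* and *Cd8a* knockout array 4 lies among the wild-type arrays while the other 3 knockout arrays lie lower, and *Cd4*, *Cd8b1* and *Cd5* lie near 4 to 5 on all arrays.

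*Cd3e*, which encodes the CD3 chain that pairs with both of the others, had log2 values of 7.02, 7.00, 7.59 and 7.70 on knockout arrays 1 to 4, against 8.09, 8.38, 7.51 and 7.95 on wild-type arrays 1 to 4. Only wild-type array 3 lay below the 2 highest knockout arrays. The log2 difference was -0.66 (standard error 0.20, 95% confidence interval -1.12 to -0.19, adjusted p = 0.281 from limma), a 0.634-fold level. Within the array days it was -0.38 on day 1 and -0.94 on day 2.

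*Cd3d*, the delta chain, had log2 values of 6.74, 6.62, 5.71 and 7.58 on the knockout arrays, against 7.73, 7.63, 7.18 and 7.45 on the wild-type arrays. The knockout arrays spread widely, with array 3 lowest and array 4 inside the wild-type range. Its log2 difference was the largest of the 15, -0.83 (standard error 0.36, interval -1.68 to 0.01, adjusted p = 0.398 from limma). The standard deviation was 0.76 in knockout and 0.24 in wild-type prostate.

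*Cd3g*, the gamma chain, had log2 values of 5.33, 5.70, 5.59 and 6.58 on the knockout arrays, against 6.93, 6.35, 5.77 and 6.74 on the wild-type arrays. Again knockout array 4 was high for its group, above wild-type arrays 2 and 3, and the groups overlapped. The log2 difference was -0.65 (standard error 0.23, interval -1.19 to -0.11, adjusted p = 0.325 from limma), with -0.75 on day 1 and -0.54 on day 2. In exact permutation tests over the arrays, 2-sided, p was 0.0857 for *Cd3e* and *Cd3d* and 0.143 for *Cd3g*, where 0.0286 is the smallest p that 4 arrays against 4 allow.

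*Cd8a*, the alpha chain of the CD8 coreceptor, had log2 values at its brightest probe set of 6.01, 5.97, 5.98 and 7.18 on the knockout arrays, against 7.22, 7.31, 6.40 and 7.28 on the wild-type arrays. Knockout arrays 1, 2 and 3 lay close together and below all wild-type arrays, and knockout array 4 lay above wild-type array 3. The log2 difference was -0.77 (standard error 0.28, interval -1.43 to -0.11, adjusted p = 0.337 from limma), and it was -0.67 and -0.87 on days 1 and 2. The exact permutation p was 0.0571, 2-sided. The other 4 probe sets of *Cd8a* had means between 3.64 and 4.39 and log2 differences of -0.11, -0.10, -0.29 and -0.19. Only the last of them had an interval that left out 0 (-0.36 to -0.01). As the mean of its 5 probe sets, *Cd8a* had a log2 difference of -0.29.

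*Cd8b1*, the beta chain that CD8 carries on classical cytotoxic T cells, lay between 4.05 and 4.51 on knockout arrays and between 4.28 and 4.39 on wild-type arrays, with a log2 difference of -0.05 (interval -0.29 to 0.19). It did not follow *Cd8a* across the arrays (r = -0.05 over 8 arrays). The 2 probe sets of *Cd4*, the coreceptor of helper T cells, lay between 4.56 and 5.00 on knockout arrays and between 4.58 and 5.03 on wild-type arrays. Their log2 differences were 0.0026 (interval -0.16 to 0.16) and -0.0076 (interval -0.16 to 0.15). These probe sets were dim on all arrays, and the differences were within the spread between arrays.

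*Cd2*, the adhesion receptor that binds CD48 in mice, had log2 values of 6.24, 6.10, 5.65 and 6.52 on the knockout arrays, against 6.95, 7.03, 6.27 and 6.34 on the wild-type arrays. Wild-type arrays 1 and 2 lay above all knockout arrays and the other arrays overlapped. The log2 difference was -0.52 (standard error 0.25, interval -1.10 to 0.05, adjusted p = 0.438 from limma), with -0.56 and -0.49 on days 1 and 2.

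*Il7r*, the IL-7 receptor alpha chain, which innate lymphoid cells also carry, had log2 values of 6.41, 6.43, 6.52 and 6.02 on the knockout arrays, against 6.86, 7.03, 6.27 and 6.49 on the wild-type arrays. In contrast to the CD3 genes, knockout array 4 was the lowest of all 8 arrays here. The log2 difference was -0.32 (interval -0.76 to 0.13, adjusted p = 0.538 from limma), and a second probe set with a mean of 3.28 had -0.13 (interval -0.36 to 0.09). *Cd5*, the inhibitory scavenger-type receptor of T cells and some B cells, lay between 3.96 and 4.25 on knockout arrays and between 3.88 and 4.37 on wild-type arrays. Its log2 difference was -0.07 (interval -0.35 to 0.20), with 0.12 on day 1 and -0.27 on day 2.

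**Figure D2:**
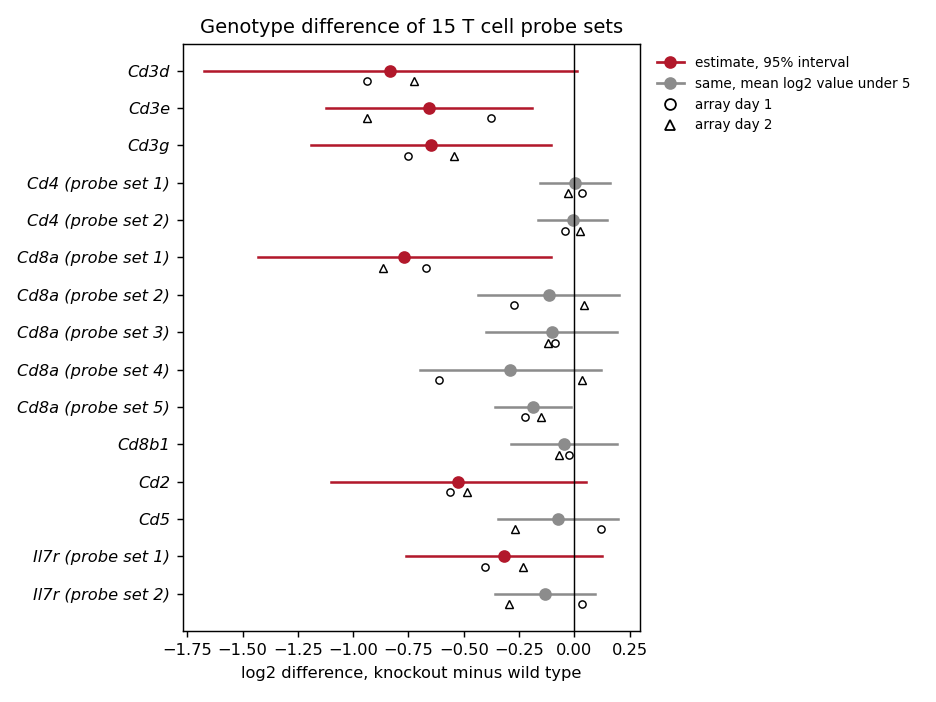
Log2 difference, knockout minus wild type, of the 15 T cell probe sets, with filled points for the limma estimate, lines for its 95% confidence interval and open symbols for the difference within each array day; grey marks probe sets with a mean log2 value under 5. The intervals of *Cd3e*, *Cd3g*, the first and the fifth probe set of *Cd8a* leave out 0, and the differences of *Cd3d*, *Cd3e*, *Cd3g*, *Cd2*, *Il7r* (first probe set) and *Cd8a* (first probe set) are negative on both days.

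Several of the brighter T cell genes varied together within a genotype as well, in large part through single arrays. After the mean of each genotype was subtracted, *Cd8a* followed *Cd3g* with r = 0.90, *Cd3d* with r = 0.77 and *Cd3e* with r = 0.75 over 8 arrays, and *Cd3d* followed *Cd2* with r = 0.83. *Cd3d* and *Cd3e* themselves had r = 0.25. *Il7r* followed none of the CD3 genes closely (r from -0.24 to 0.37). For *Cd8a*, knockout array 4 and wild-type array 3 stood apart from the rest of their groups, so its r values rest largely on them. No r was calculated without these arrays. These correlations are descriptions over 8 arrays that share array day, dissection and RMA normalization. The mean of the 9 measured genes was 5.64, 5.69, 5.58 and 6.12 on the knockout arrays, against 6.34, 6.36, 5.90 and 6.16 on the wild-type arrays. Knockout arrays 1, 2 and 3 lay below all wild-type arrays, and knockout array 4 lay between wild-type arrays 3 and 4. The difference of the group means was -0.43, with -0.40 on day 1 and -0.46 on day 2. Over the 6 brighter genes it was -0.62, with 6.42 ± 0.34 in knockout and 7.05 ± 0.34 in wild-type prostate (SD, n = 4 each).

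Differences were mostly closer to 0 among measured genes further along the T cell receptor pathway, a contrast with the CD3 genes that was not tested. *Cd247*, the zeta chain, had 4.83, 4.84, 4.63 and 4.87 on the knockout arrays, against 5.08, 5.32, 4.91 and 5.15 on the wild-type arrays. The groups did not overlap, but the difference of -0.32 was not called (adjusted p = 0.298 from limma) and the probe set was dim. *Fcer1g*, which can stand in for the zeta chain, was the other receptor chain measured of 8 listed and had -0.0071. Of 22 measured genes of receptor signalling, out of 24 listed, none was called and none passed an unadjusted p under 0.05, where 8.49% of all genes were lower and 6.27% higher. Their median log2 difference was -0.02, with 15 of them lower and 7 higher by their means. Their mean log2 values ran from 3.16 (*Trat1*) to 11.73 (*Plcg1*), and how much of each came from T cells was not tested. The adaptor genes *Grap2* and *Lcp2* and the kinase gene *Prkcq* had differences of 0.23, -0.60 and -0.28 (adjusted p = 0.391, 0.403 and 0.426 from limma). Of 20 inhibitors of receptor signalling, 1 was higher and 2 were lower at an unadjusted p under 0.05, and none was called. These were the adaptor *Dok2* (0.18), the inhibitory receptor *Btla* (-0.36) and the diacylglycerol kinase *Dgka* (-0.21).

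Over all genes, 53.8% had a lower mean, and 8.49% were lower and 6.27% higher at an unadjusted p under 0.05. Of 19 genes of costimulation and adhesion, 16 had a lower mean, 2 were lower at that p and none was called, with a median of -0.13. The costimulatory receptor *Tnfrsf9*, also called 4-1BB, had a log2 difference of -0.34, *Cd96*, a receptor of T and NK cells, had -0.58, and the costimulatory ligand *Cd86* of antigen-presenting cells, which missed that p, had -0.43. Of 17 genes of IL-7 and common gamma chain signalling, 10 had a higher mean, and the median was 0.06. *Il15ra*, which presents IL-15, was the only one to pass an unadjusted p under 0.05 (-0.31), while *Jak3* and *Stat5a* had 0.41 and 0.15. Of 16 T cell transcription factors, 8 had a higher and 8 a lower mean. At an unadjusted p under 0.05, 3 were higher, namely *Runx3* (0.34), *Tox* (0.53) and *Ets1* (0.23). Another 2 were lower, *Klf2* (-0.34), which keeps T cells quiescent, and *Foxp3* (-0.21). Mean log2 values in this list ran from 4.29 (*Eomes*) to 12.05 (*Satb1*), and how much of each came from T cells was not tested. Of 16 homing receptors, 11 had a lower mean and 1, the integrin gene *Itgb7* (-0.37), was lower at an unadjusted p under 0.05. The chemokine receptors *Cxcr6* and *Cxcr3* had -0.37 and -0.66. None of the genes in these lists was called.

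Effector genes of T and NK cells included differences further below 0 than those of the CD3 genes, but none was called. *Ccl5*, a chemokine of activated T cells, had 8.13, 7.57, 7.63 and 8.90 on the knockout arrays, against 9.81, 9.73, 8.03 and 9.56 on the wild-type arrays. Here too knockout array 4 was the highest of its group and wild-type array 3 the lowest of its group. The log2 difference was -1.22 (standard error 0.41, adjusted p = 0.309 from limma). *Nkg7*, a cytotoxic granule protein gene, had -0.89 (adjusted p = 0.286 from limma) and the death ligand *Tnfsf10* had 0.37 (adjusted p = 0.283 from limma). Of 15 effector genes, 3 were lower and 1 was higher at an unadjusted p under 0.05, and the median was -0.07. Over all genes, 8.49% were lower and 6.27% higher at that p. Of 8 NK cell markers, *Klrk1* (-0.39) and *Klrd1* (-0.65), which cytotoxic T cells also express, were lower at an unadjusted p under 0.05. *Ncr1*, the marker confined largely to NK and related innate cells, had 0.13. All of these were dim, with mean log2 values of 4.12 for *Klrk1*, 4.60 for *Klrd1* and 3.39 for *Ncr1*. The part of NK cells in the values was not tested.

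**Figure D3:**
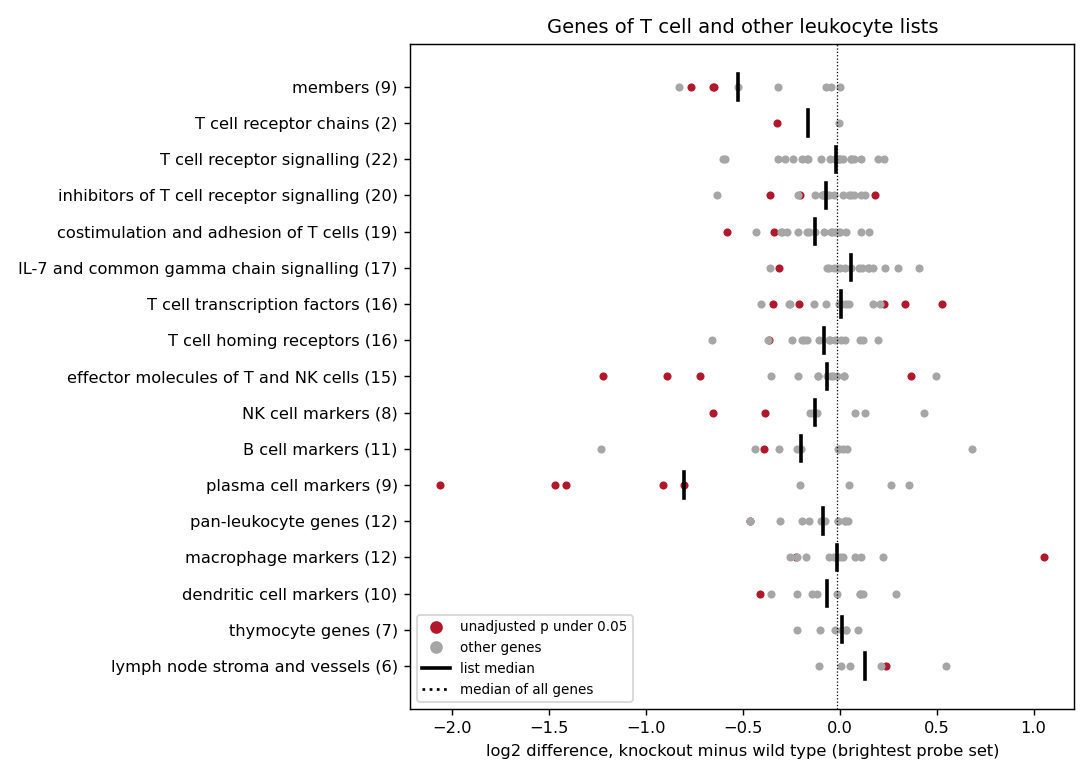
Log2 difference, knockout minus wild type, of each gene in 17 lists (brightest probe set, number of genes measured in brackets), with red for an unadjusted p under 0.05, a bar at the list median and a dotted line at the median of all genes. The T cell genes have a median of -0.52 and the plasma cell markers one of -0.81, while those of receptor signalling and macrophages are -0.02.

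The genes most like the mean of the T cell genes across the 8 arrays were sought among 12326 genes with a mean log2 value of at least 6. They were *Trav9d-3* (r = 0.98), *Cyb561*, *Gimap3*, *Selenow*, *Aagab*, *Ccl5*, *Ctsw*, *Nckipsd*, *Rbks* and *Trbv1* (r = 0.93), and 22 candidates reached r = 0.9. *Trav9d-3* and *Trbv1* are variable segments of the T cell receptor alpha and beta chains, a family of close copies that share probes, so the segment named is uncertain. *Gimap3* encodes a GTPase of lymphocytes and *Ctsw* a cathepsin of cytotoxic lymphocytes. *Trav9d-3* had 6.90, 6.81, 6.51 and 7.36 on the knockout arrays, against 7.97, 7.93, 7.04 and 7.58 on the wild-type arrays. This is the same arrangement as for *Cd8a*, with knockout array 4 above wild-type array 3. The log2 differences of *Trav9d-3*, *Gimap3*, *Ctsw* and *Trbv1* were -0.73, -0.61, -0.61 and -0.67. Since the T cell mean itself differed between the genotypes, the choice by likeness favoured genes with lower knockout values, and these differences are given as a description. After the mean of each genotype was subtracted, r with the T cell mean was 0.95 for *Trav9d-3*, 0.92 for *Gimap3* and *Ctsw*, and 0.86 for *Trbv1*. For *Cyb561*, *Selenow* and *Aagab*, which are bright in these arrays, this r was 0.93, 0.94 and 0.90. Their log2 differences were -0.14, -0.07 and -0.13. The T cell mean lay furthest from that of its group on knockout array 4 and wild-type array 3, which weigh heavily in r after that subtraction.

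Some markers of other leukocytes also had lower values in knockout prostate, without being called. Of 9 plasma cell markers, 6 had a lower and 3 a higher mean, 5 were lower at an unadjusted p under 0.05, none was called and the median was -0.81. Over all genes, 53.8% had a lower mean and 8.49% were lower at that p. The differences of the plasma cell markers ranged from -2.06 to 0.36. *Igha*, the IgA heavy chain gene, had 11.90, 11.79, 9.73 and 10.59 on the knockout arrays, against 12.69, 12.74, 12.29 and 12.17 on the wild-type arrays, a difference of -1.47 (adjusted p = 0.225 from limma). *Pou2af1*, a B cell coactivator gene, had -0.81, and *Ighm*, the IgM heavy chain gene, had -2.06. On days 1 and 2 the difference was -2.27 and -0.67 for *Igha*, and -3.06 and -1.06 for *Ighm*. The 3 with a higher mean were *Irf4* (0.26), *Derl3* (0.36) and *Sdc1* (0.05). *Derl3* and *Sdc1* were bright (mean log2 values 12.29 and 12.81), and how much of each came from plasma cells was not tested. The average of the 9 markers was between 8.03 and 9.24 on knockout arrays and between 9.03 and 9.59 on wild-type arrays, and it was 8.42 on knockout array 4, where the T cell genes were high. Of 11 B cell markers, 8 had a lower mean and 1, *Cd72* (-0.39, adjusted p = 0.126 from limma), was lower at an unadjusted p under 0.05. *Pax5* and *Ms4a1*, which define B cells, had -0.22 and -1.23, and *Ms4a1* was above 6 only on wild-type arrays 1 and 2. The B cell average was between 4.93 and 5.45 on knockout arrays and between 5.09 and 5.48 on wild-type arrays.

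The 12 pan-leukocyte genes averaged between 8.80 and 9.20 on knockout arrays and between 8.93 and 9.35 on wild-type arrays, with a median log2 difference of -0.09. Among them 1 gene, *Selplg* (-0.46), was lower at an unadjusted p under 0.05, against 8.49% of all genes lower and 6.27% higher. *Rac2* and *Coro1a* of the same list had -0.47 and -0.31. The 12 macrophage markers had a median of -0.02, with 6 higher and 6 lower by their means. *Cd209f* had 1.05 and *Mertk* -0.23, both at an unadjusted p under 0.05, and *Cx3cr1* had -0.22. The macrophage average was between 8.34 and 8.94 on knockout arrays and between 8.44 and 8.78 on wild-type arrays. Of 10 dendritic cell markers, 4 had a higher and 6 a lower mean, with a median of -0.07. *Batf3* (-0.41) was lower at an unadjusted p under 0.05, *Siglech* and *Clec10a* had -0.22 and -0.35, and the differences ranged up to 0.29. The part of these cells in the values of *Cd4*, *Cd8a* and *Il7r*, which some of them also express, was not tested. Among genes of other prostate cells, the median log2 difference was 0.02 for 8 genes of smooth muscle, 0.03 for 8 of endothelium, 0.24 for 8 of fibroblasts, -0.04 for the 9 of epithelium and 0.52 for 6 of seminal vesicle, and none of them was called. The 9 photoreceptor genes had a median of 0.02.

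**Figure D4:**
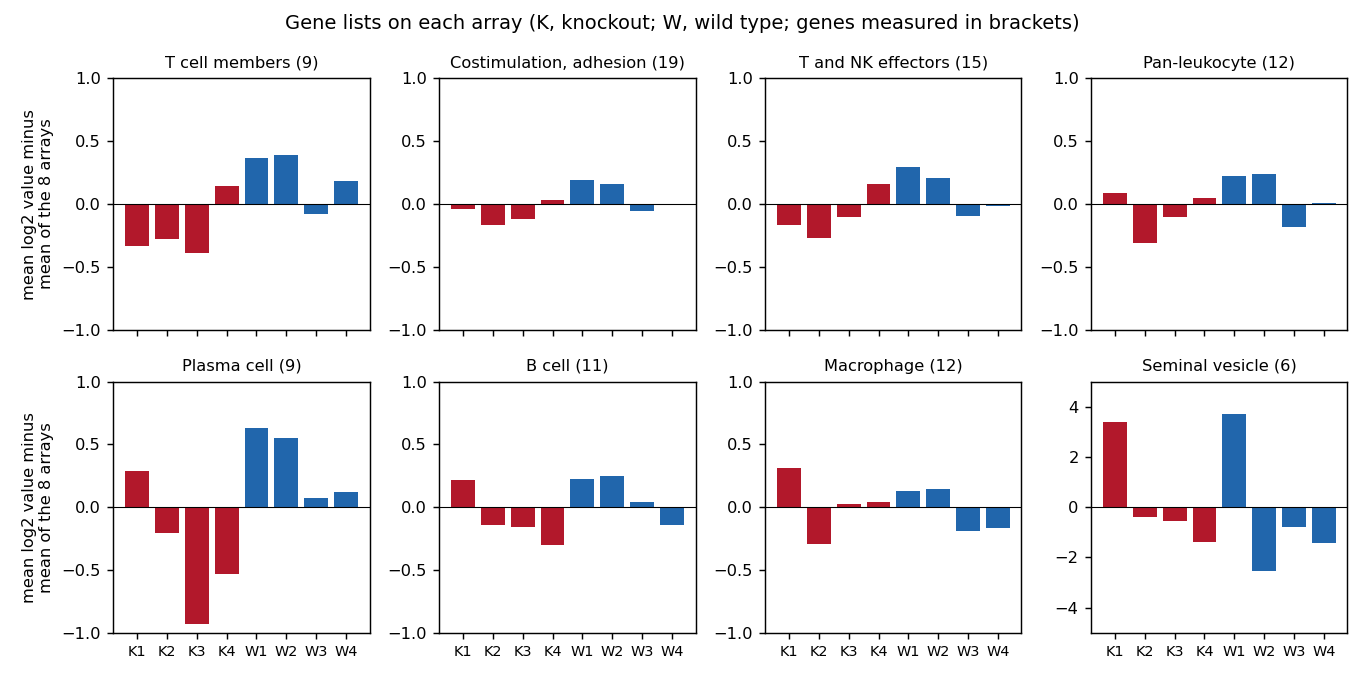
Mean log2 value of 8 gene lists on each array after the mean of the 8 arrays was subtracted, knockout in red and wild type in blue; the seminal vesicle panel has a wider axis. The T cell genes are below their mean on knockout arrays 1, 2 and 3 and wild-type array 3, whereas the plasma cell markers are below it on knockout arrays 2, 3 and 4.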

How the data were processed

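Prostate RNA of 3-month-old mice, 4 without *Olfm4* and 4 wild type, was measured on Affymetrix Mouse Genome arrays, with 1 biotin-labelled sample on each. The sample labels give 4 mice per genotype, fewer than the methods name. The labels name Trizol for RNA extraction and the methods another kit. The authors deposited log2 values made with RMA, which corrects background, quantile-normalizes the arrays and summarises probe sets. RMA narrows differences at dim probe sets. The sources used here give no version. Older mice, which the methods also name, are not analysed here.

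The 64 control probe sets were left out. Of the other 45037, 34945 had 1 gene symbol in the platform annotation, 932 had several and 9160 had none. Symbols were updated through RefSeq (GRCm38.p6), which held 18032 of 18193 genes. A linear model with genotype and array day (read from the sample titles) was fitted to every probe set in R 4.3.3 with limma 3.58.1, using lmFit and eBayes. Its p-values are 2-sided and were adjusted over all probe sets by Benjamini-Hochberg, and calls were made under 0.05. The methods name ANOVA without covariates, which was run as an alternative. The fit was tested on simulated data. A gene outside the T cell set was represented by its brightest probe set and named when it had 1 of the 3 smallest p-values of its list or was 1 of the 10 genes most like the T cell mean. Some other genes were named as the ends of a range of means or to complete a count. The number of arrays limits the precision.

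The T cell genes and the 22 other lists were chosen with earlier results of these data known, so no p over a list is given. The other alternatives were fits without array day or with replicate numbers as blocks, an intensity trend, array weights, 2 further normalizations, minimum mean log2 values of 5 and 7, averages over a gene's probe sets, fits within either array day, and leaving out arrays. Counts at an unadjusted p were added after the data were seen.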

Additional observations from a re-analysis of the deposited data

Results flagged for a closer look

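For 2 of 32 groups of 4 arrays (15 T cell probe sets and their mean, in each genotype), a single array lay far from the other 3 relative to the range of its group. Chance flags about 1 in 20 groups. Both concern the brightest probe set of *Cd8a*. Knockout array 4 had a log2 value of 7.178, while the other knockout arrays lay between 5.968 and 6.006. Wild-type array 3 had 6.398, while the other wild-type arrays lay between 7.219 and 7.307.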

How the results depend on the processing

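The number of T cell probe sets called was 0 in every fit run, among them limma on all arrays, the ANOVA of the methods and each fit with an array left out. The lower mean of *Cd2*, *Cd3d*, *Cd3e*, *Cd3g*, *Il7r* (brightest probe set) and *Cd8a* (brightest and dimmest) kept its direction in every fit that held the probe set. The count of T cell probe sets lower at an unadjusted p under 0.05, 4 on all arrays, was 2 in the ANOVA of the methods, with array weights and on either array day alone, 1 among probe sets with a mean of at least 7, and 0 without knockout array 1 and wild-type array 1. It ranged from 1 to 7 when 1 array was left out. With replicate numbers as a block it was 5. The number of all probe sets called, 50 with all arrays and array day, was 20 with that block, 24 in the ANOVA and 4 on either array day alone, and it ranged from 17 to 43 with 1 array left out. Same-numbered arrays of the genotypes deviated together only in part (r = 0.336, 0.173, 0.0433 and -0.00559), and these r values cannot tell whether the mice were paired. Among probe sets with a mean of at least 7, only 2 T cell genes remained in the fit, both lower, and the difference of their mean was -0.74. With 1 array left out, the difference of the mean of the 9 genes ranged from -0.55 to -0.37 and the number of genes lower from 7 to 9.

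Several values changed sign, not all of them near 0. The dimmer *Cd4* probe set was higher by 0.0151 with array weights, 0.0214 with centred arrays and 0.0273 on day 2 alone, and up to 0.0233 with 1 array left out (-0.0459 to 0.0233). The other *Cd4* probe set had -0.0282 on day 2 alone and -0.0270 to 0.0445 with 1 array left out. On day 1 alone *Cd5* had 0.12 and the second *Il7r* probe set 0.0341, against -0.27 and -0.30 on day 2 alone. On day 2 alone the *Cd8a* probe sets with log2 differences of -0.11 and -0.29 had 0.0439 and 0.0347, against -0.27 and -0.61 on day 1 alone. With 1 array left out, that at -0.11 ranged from -0.191 to 0.000226 and *Cd8b1* from -0.136 to 0.0506. Without knockout array 1 and wild-type array 1, *Cd8b1* had 0.0582 and the *Cd8a* probe set at -0.10 had 0.00429. *Cd4*, *Cd8b1* and *Cd5* were dim, and no detection limit was measured.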

Other observations

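Beside the lists, every probe set named for a variable segment of the T cell receptor was looked up, a choice made after the likeness to *Trav9d-3* had been seen. There were 16 such probe sets for 9 genes, none was called by limma, and segments are close copies that can share probes. Of the 5 probe sets of *Trav9d-3*, 3 had log2 differences, knockout minus wild type, of -1.28, -0.86 and -0.73, given as a description because the gene was chosen for its likeness to the T cell mean, and the 2 dimmest had -0.02 and -0.04. For the first 2 of these the groups did not overlap, with knockout lower, as was the case for 5.03% of all probe sets. *Trbv1* had -0.67 at its brighter and 0.03 at its dimmer probe set. *Trgv4*, a segment of the gamma chain used by gamma delta T cells, had -0.38, -0.38 and 0.0025 (adjusted p = 0.535, 0.568 and 0.995 from limma). *Trgv1* had -0.28. *Trbv13-2*, *Trav6-3*, *Trav13-5*, *Trav12n-2* and *Trav12n-1* lay under a mean log2 value of 5, with differences between -0.05 and 0.22.

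Genes of thymocytes and of lymph node stroma had no probe set called. The 7 thymocyte genes were split, 4 higher and 3 lower by their means, with a median of 0.01, and the recombinase gene *Rag1* had a mean log2 value of 3.00. *Tdrd5* and *Dntt* had differences of 0.09 and 0.03. Of 6 measured genes of lymph node stroma and vessels, 5 had a higher mean in knockout prostate, with a median of 0.13 and a range from -0.11 to 0.55. Over all genes, 53.8% had a lower mean. At an unadjusted p under 0.05, 1 of the 6 was higher and none lower, against 6.27% of all genes higher and 8.49% lower. *Cxcl13*, the chemokine that draws B cells, had 10.51, 9.32, 8.82 and 9.52 on the knockout arrays, against 9.46, 9.42, 8.86 and 8.25 on the wild-type arrays, and *Chst4* and *Madcam1* had 0.24 and 0.21.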
